A study of Danio rerio with 12 samples.

Results

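The 10 genes described here belong to the Notch pathway of the zebrafish and were taken by symbol. They are the Hey repressor genes *hey1*, *hey2* and *heyl*, the related repressor gene *her6*, the receptor genes *notch1a*, *notch1b*, *notch2* and *notch3*, and the ligand genes *dll4* and *jag1b*. All 10 were found among the 32105 genes of the deposited table. Of these, 9 passed a filter on low counts and were tested, and *heyl* did not pass it.

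RNA was sequenced from ventricles at 7 days post-amputation (dpa) in fish of the AB strain aged 5 months. The mutant group, grl5nt-/-, is homozygous for a deletion of 5 nucleotides in *hey2*, which is also named *grl* (a nonsense allele made with CRISPR/Cas9), and the control group holds WT siblings. Both groups underwent ventricular resection and received no drug or transgene. Each group has 3 libraries, each made from 6 pooled ventricles, so the spread reported is between pools and not between fish. The fish that overexpress *grl* in the same series are not analysed here.

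Notch receptors sit in the cell membrane and are cut when a ligand on a neighbouring cell binds them. The released part enters the nucleus, joins the DNA-binding protein Rbpj and switches on target genes. Hey and Her proteins are basic helix-loop-helix repressors, and many of their genes are such targets. In the vertebrate heart the pathway is best known from the endocardium, the coronary vessels and the valves, and in zebrafish also from the endocardium and epicardium after injury.

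The total count per library was between 12520034 and 15006574, and 15602 genes were tested. 3 libraries (WT replicates 1 and 2, mutant replicate 1) had no reads on the mitochondrial gene *mt-co1*, and the other 3 had between 583890 and 739939. This split runs across both genotypes and moved with many genes. Differences within a side rest on 1 library of a genotype. That is mutant replicate 1 without *mt-co1* reads and WT replicate 3 with them. The biological coefficient of variation was 0.328 without a term for the split and 0.184 with it. The cardiomyocyte genes *cmlc1* and *myl7* stood at a mean of 14220 and 7142 FPKM (fragments scaled to exon length and to the mapped reads), and no gene of the matched marker lists for 8 cell types or regions was at 0 in all 6 libraries. The summed level of each of these lists overlapped between the genotypes, though single markers within a list could differ. In whole ventricles, fewer cells of a type and less RNA per cell cannot be told apart.

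Levels of the 10 genes differed widely. In WT ventricles *her6* had a mean of 26.4 ± 10.6 FPKM (SD, n = 3) and *notch1b* 20.7 ± 8.56, and these were the most abundant members. *notch2* followed at 10.9 ± 3.20, *dll4* at 7.72 ± 3.12, *notch3* at 7.22 ± 2.79 and *hey2* at 7.04 ± 2.37. *jag1b* had 4.2 ± 1.76 and *notch1a* 3.89 ± 1.3. *hey1* and *heyl* were the rarest, at 0.525 ± 0.370 and 0.311 ± 0.170. *her6* stood above 88.1% of the tested genes by mean FPKM over the 6 libraries, *notch1b* above 85.6%, and *hey1* above 12.7%.

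Neighbours in this order were compared within each library, where the depth is shared. *notch1b* exceeded *notch2* in 3 of 3 WT and 3 of 3 mutant libraries, *notch1a* exceeded *hey1* in all 6, and *hey1* exceeded *heyl* in all 6. *hey2* also exceeded *jag1b* in every library, by 0.79 ± 0.25 on the log2 scale in WT and 2.44 ± 0.25 in mutants. Other neighbours kept no fixed order over the 6 libraries. *her6* was above *notch1b* in 2 of 3 libraries of each genotype, and *dll4* was above *notch3* in 3 of 3 WT but 1 of 3 mutant libraries. *notch3* was above *hey2* in 1 of 3 WT and 0 of 3 mutant libraries, with a WT difference of 0.01 ± 0.21. *notch2* was above *dll4* in 3 of 3 WT and 2 of 3 mutant libraries, and *jag1b* above *notch1a* in 2 of 3 WT and 0 of 3 mutant libraries. In mutants *her6* (19.3 ± 2.15 FPKM) and *notch1b* (15.9 ± 8.32) again stood highest by mean, followed by *hey2* (8.67 ± 0.746).

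The Hey proteins bind E-box and related sites and recruit co-repressors. *hey2* (ENSDARG00000013441; GRCz10 chromosome 20, 39686262 to 39693703) is known in zebrafish as gridlock, a gene needed for assembly of the aorta, and it is the gene mutated here. Its counts were 256, 177 and 127 in WT replicates 1, 2 and 3. They were 228, 218 and 189 in the mutants. As CPM (counts scaled to each library's total and TMM factor), *hey2* had 13.2, 10.6 and 9.95 in WT and 15.6, 18.8 and 18.5 in mutants. Each mutant library was thus above each WT library, with means of 11.3 ± 1.76 and 17.6 ± 1.78 (SD, n = 3).

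The log2 fold change of *hey2*, mutants over WT, was 0.64 (SE 0.22, 95% interval 0.14 to 1.15, edgeR quasi-likelihood test). Its unadjusted p was 0.0191 and its adjusted p over all genes 0.405 by edgeR, so it was not called. The exact permutation test gave 0.1, the smallest p that 3 libraries against 3 allow. On the FPKM scale, which divides by the column total without a composition factor, the groups overlapped, at 9.40, 7.04 and 4.66 in WT and 9.53, 8.17 and 8.31 in mutants. The difference was 0.39 between the libraries without *mt-co1* reads and 0.90 between those with them. The mutant *hey2* mRNA is counted across the gene, and the deletion is small, so its level does not tell the alleles apart and gives no check of the genotype labels.

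*hey1* (ENSDARG00000070538; chromosome 19, 32210254 to 32214983) encodes a paralog of Hey2 with a similar DNA-binding domain. Its counts were 47, 18 and 12 in WT and 43, 26 and 24 in mutants. As CPM these were 2.43, 1.07 and 0.940 in WT and 2.94, 2.25 and 2.34 in mutants. WT replicate 1 lay above mutant replicates 2 and 3, so the groups overlapped. The log2 fold change of *hey1* was 0.74 (SE 0.46, 95% interval -0.30 to 1.79, adjusted p 0.554 by edgeR), and without WT replicate 1 it was 1.32. The interval thus held both 0 and large positive values.

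*heyl* (ENSDARG00000055798; chromosome 19, 32966754 to 32973471), the third member of the Hey family, was close to the limit of the depth. Its counts were 11, 8 and 3 in WT and 4, 7 and 11 in mutants. The Poisson 95% intervals of the single counts, which cover counting error only, ran from 0.619 to 8.77 for the count of 3 in WT replicate 3 and from 5.49 to 19.7 for a count of 11. The groups overlapped, and a difference in *heyl* was not detectable at this depth. Without the filter, the log2 fold change was 0.53 with an adjusted p of 0.764 by edgeR.

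Most Hey transcripts came from *hey2* in each library. *hey2* made up 87.1%, 90.4% and 92.8% of the summed FPKM of the 3 Hey genes in WT and 89.1%, 90.8% and 88.1% in mutants. The mean share was 90.1% ± 2.86 in WT and 89.3% ± 1.36 in mutants (SD, n = 3). The *hey1* to *hey2* ratio overlapped between genotypes, as did the *heyl* to *hey2* ratio, with differences of 0.23 and -0.16 on the log2 scale. The make-up of the family therefore did not separate the groups.

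*her6* (ENSDARG00000006514; chromosome 6, 36573189 to 36574950) is a zebrafish counterpart of mammalian Hes1, a repressor that responds to Notch. Its counts were 878, 487 and 1229 in WT and 515, 605 and 603 in mutants. In CPM, *her6* had 45.5, 29.1 and 96.3 in WT and 35.2, 52.3 and 58.9 in mutants. WT held both the lowest and the highest library. For *her6* the log2 fold change was -0.22 (SE 0.42, 95% interval -1.19 to 0.74, adjusted p 0.813 by edgeR), and without WT replicate 3 it turned to 0.40. *her6* moved with the *mt-co1* split: in the fit with both terms, libraries with *mt-co1* reads were higher by 1.02 on the log2 scale than those without.

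**Figure D1:**
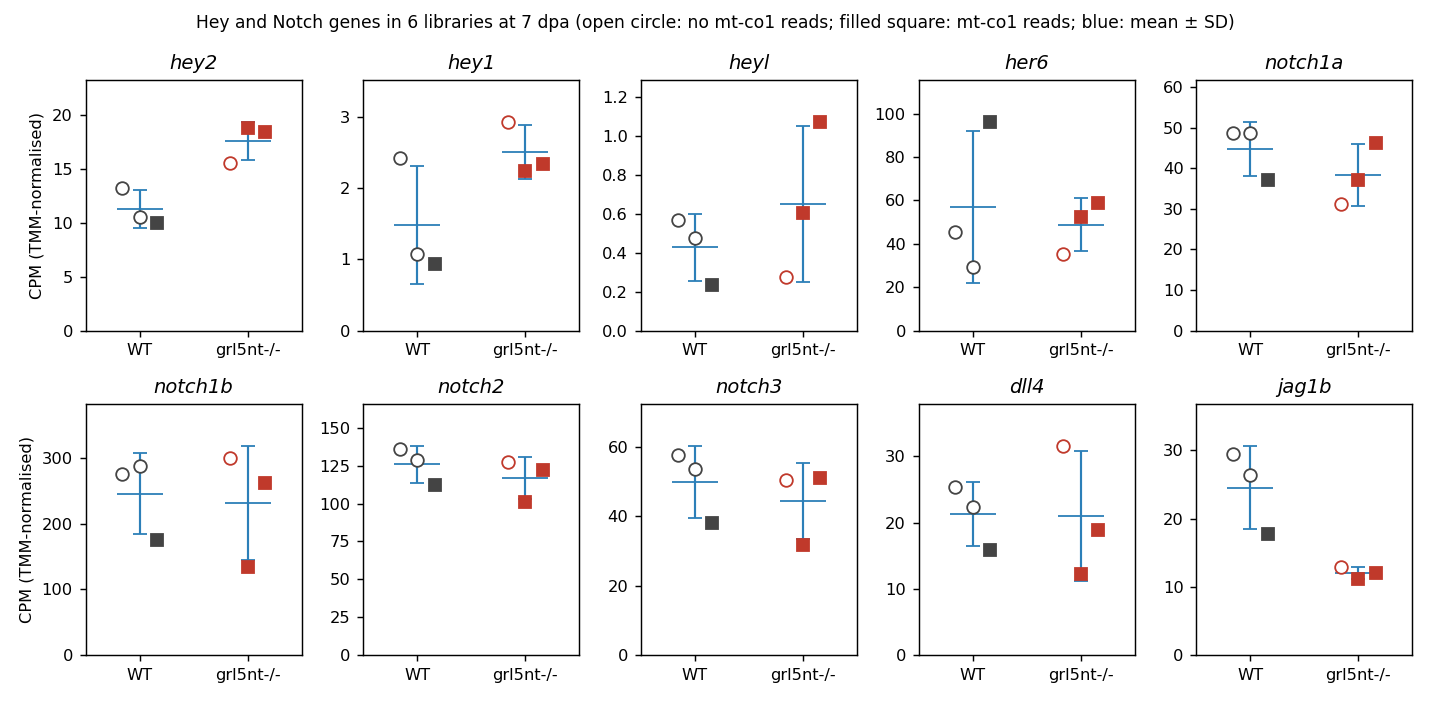
Level of each of the 10 genes in TMM-scaled CPM (vertical axes, from 0, a separate scale for each gene) in 3 WT (grey) and 3 grl5nt-/- (red) libraries, with the mean and SD in blue; open circles are libraries without *mt-co1* reads and filled squares those with them. The mutant points of *hey2* (15.6 to 18.8) lie above the WT points (9.95 to 13.2) and those of *jag1b* (11.2 to 12.9) below them (17.7 to 29.5), while the other 8 genes overlap.

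The 4 receptor genes showed no separation between genotypes. *notch1b* (ENSDARG00000052094; chromosome 5, 64998482 to 65103741), a Notch1 gene known from zebrafish endothelium and endocardium, had 275, 287 and 174 CPM in WT. It had 300, 134 and 261 CPM in mutants. The lowest library was mutant replicate 2 and the highest mutant replicate 1, so mutants spanned the WT range. Its log2 fold change was -0.08 (SE 0.35, 95% interval -0.88 to 0.71, adjusted p 0.913 by edgeR). Within each side of the *mt-co1* split the difference was 0.09 and 0.10, and libraries with *mt-co1* reads were 0.65 lower on the log2 scale than those without.

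*notch1a* (ENSDARG00000103554; chromosome 21, 4601675 to 4684498), the other zebrafish Notch1 gene, had 48.6, 48.8 and 37.1 CPM in WT. In mutants it had 31.2, 37.2 and 46.4 CPM, which overlapped WT at replicate 3. Mutants differed from WT by a log2 fold change of -0.23 (SE 0.23, 95% interval -0.75 to 0.29, adjusted p 0.663 by edgeR). The sides of the split did not point the same way, at -0.64 between libraries without *mt-co1* reads and 0.16 between those with them.

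*notch2* (ENSDARG00000043130; chromosome 8, 19516900 to 19587707) was the steadiest receptor gene. It had 136, 129 and 112 CPM in WT and 127, 101 and 122 CPM in mutants. Its log2 fold change was -0.11 (SE 0.21, 95% interval -0.59 to 0.37, adjusted p 0.816 by edgeR). *notch3* (ENSDARG00000052139; chromosome 3, 53275051 to 53304745), known in zebrafish and mammals for its role in mural cells, the pericytes and smooth muscle around vessels, had 57.7, 53.7 and 37.9 CPM in WT. It had 50.5, 31.8 and 51.1 CPM in mutants, with a log2 fold change of -0.16 (SE 0.26, 95% interval -0.77 to 0.44, adjusted p 0.785 by edgeR). For all 4 receptor genes the 95% interval held a fold change of 0, and none of the 4 intervals reached below -0.88.

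The receptor make-up was similar in the libraries. *notch1b* gave 48.4%, 50.7% and 44.0% of the summed receptor FPKM in WT and 54.2%, 40.1% and 49.7% in mutants. *notch3* varied least, from 15.8% to 17.5% over the 6 libraries. *notch1a* was between 5.89% and 11.6%, with both extremes in mutants. The summed receptor FPKM itself was 53.5, 50.1 and 24.6 in WT and 44.9, 19.2 and 31.4 in mutants, so libraries with *mt-co1* reads had lower sums. FPKM has no composition factor, and the size of this gap depends on the scaling. TMM factors were 1.138 to 1.305 in libraries without *mt-co1* reads and 0.788 to 0.851 in those with them. The *notch1b* to *notch1a*, *notch2* to *notch1b* and *notch3* to *notch1b* ratios overlapped between genotypes, with differences of 0.10, 0.02 and -0.04 on the log2 scale.

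Of the ligands, *jag1b* separated by genotype and *dll4* did not. Both are membrane proteins of the signal-sending cell: Dll4 is known from arterial and sprouting endothelium, and zebrafish *jag1b* from several embryonic tissues, where it is 1 of the counterparts of mammalian Jag1. *jag1b* (ENSDARG00000013168; chromosome 13, 35213350 to 35264263) had counts of 570, 442 and 226 in WT and 189, 129 and 123 in mutants. In CPM these were 29.5, 26.4 and 17.7 in WT and 12.9, 11.2 and 12.0 in mutants. All 3 mutant libraries were below all 3 WT libraries, and the mutant values were close together, with means of 24.5 ± 6.11 in WT and 12.0 ± 0.883 in mutants (SD, n = 3).

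The log2 fold change of *jag1b* was -1.03 (SE 0.25, 95% interval -1.59 to -0.46, edgeR), a level 2.04-fold lower in mutants. Its unadjusted p was 0.00283 and its adjusted p over all genes 0.249 by edgeR, so it was not called. The exact permutation test gave 0.1, the smallest p possible. The groups were also apart in FPKM, at 5.63, 4.73 and 2.23 in WT and 2.12, 1.3 and 1.46 in mutants. Here WT replicate 3 lay just above mutant replicate 1. The difference had the same sign on both sides of the *mt-co1* split, -1.10 without and -0.61 with *mt-co1* reads. Each of these values rests on 1 library of a genotype, mutant replicate 1 and WT replicate 3. *jag1b* also moved with the split: in the fit with both terms, libraries with *mt-co1* reads were 0.42 lower on the log2 scale. *jag1b* was called by DESeq2 (log2 fold change -0.98, adjusted p 0.0494) and by edgeR with a term for the split (-0.87, adjusted p 0.0462), and its adjusted p ranged from 0.0462 to 0.879 over the alternatives.

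*dll4* (ENSDARG00000070425; chromosome 20, 28346074 to 28354934) had counts of 491, 375 and 203 in WT and 462, 142 and 194 in mutants. Its CPM were 25.4, 22.4 and 15.9 in WT and 31.6, 12.3 and 18.9 in mutants. Mutants held both the highest and the lowest library. Between genotypes *dll4* differed by a log2 fold change of -0.02 (SE 0.35, 95% interval -0.83 to 0.79, adjusted p 0.980 by edgeR). *dll4* also followed the split, with libraries with *mt-co1* reads 0.81 lower on the log2 scale in the fit with both terms.

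A ratio within a library does not depend on how libraries are scaled, but it can still move with the *mt-co1* split. *dll4* exceeded *jag1b* by 1.84-, 1.81- and 1.91-fold in WT, in FPKM. In mutants it did so by 5.21-fold in replicate 1, without *mt-co1* reads, and by 2.34- and 3.36-fold in replicates 2 and 3, with them. The 3 WT ratios were close together, and each mutant ratio was higher. The mean log2 ratio was 0.89 ± 0.04 in WT and 1.79 ± 0.58 in mutants (SD, n = 3), a difference of 0.90. The exact permutation test, two-sided, gave 0.1, the smallest possible, and 0.6 after Benjamini-Hochberg adjustment over the 6 ratios tested. The other 5 tested ratios overlapped between genotypes, with adjusted p of 0.9 by the same exact test. The ratios of neighbours in level, described above, were not tested, and some of them also separated by genotype. That of *hey2* to *jag1b* was higher in all mutants. This had to follow, since in CPM *hey2* was higher and *jag1b* lower in all mutants. Those of *notch3* to *hey2*, *jag1b* to *notch1a* and, narrowly, *notch1a* to *hey1* were lower. All but the last contain *hey2* or *jag1b*. The share of all gene pairs that separate was not computed, so these ratios add no support to the values of the single genes.

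**Figure D2:**
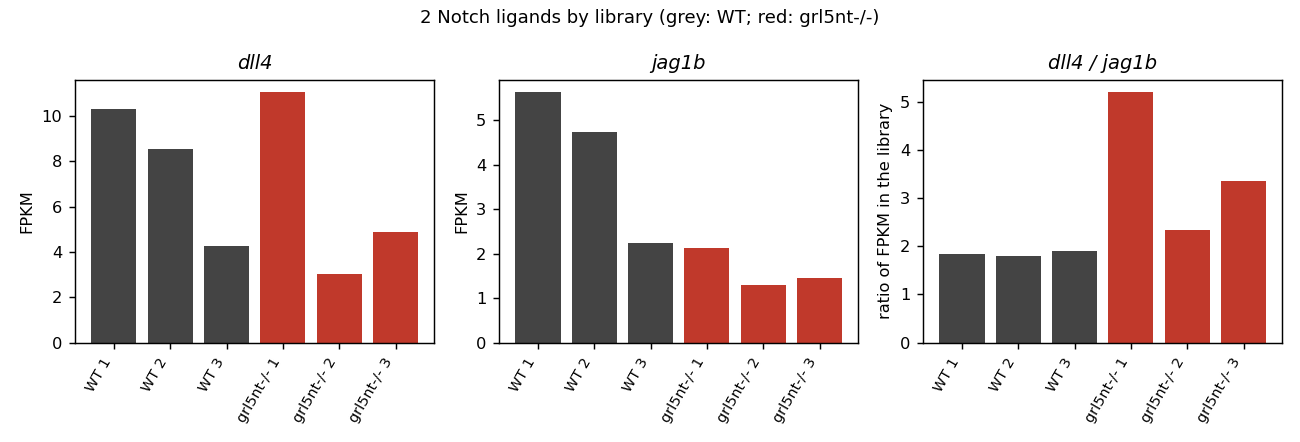
FPKM of *dll4* (left) and *jag1b* (middle) and the ratio of the 2 within each library (right), as bars from 0 for WT replicates 1 to 3 (grey) and grl5nt-/- replicates 1 to 3 (red). The ratio is 1.81 to 1.91 in WT and 2.34 to 5.21 in mutants, while *dll4* alone overlaps between the genotypes.

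Over the 9 tested members, 2 (*hey1*, *hey2*) had a higher mean log2 level in mutants and 7 a lower one, with a median log2 fold change of -0.11. The median over all genes tested was -0.05, and 7314 of them were higher and 8288 lower. No member had an adjusted p below 0.05 by edgeR, where 0.0769% of all genes tested did. 2 of 9 had an unadjusted p below 0.05, *hey2* upward and *jag1b* downward, beside 10.6% of all genes. 1 of 9 had all mutants above WT and 1 of 9 all mutants below, beside 6.95% and 8.64% of all genes. With DESeq2 1 member was called (1.55% of all genes), and with a term for the split 1 member (1.54% of all genes), *jag1b* both times.

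**Figure D3:**
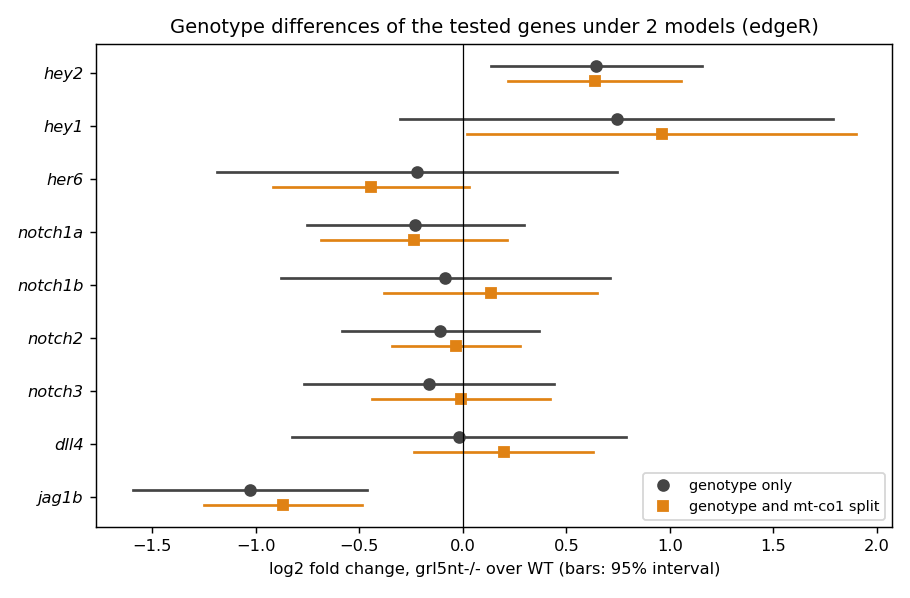
Log2 fold change, grl5nt-/- over WT, of the 9 tested genes (horizontal axis; bars are 95% intervals) from edgeR with genotype as the only term (grey circles) and with a further term for the *mt-co1* split (orange squares). *hey2* at 0.64 and *jag1b* at -1.03 have intervals that leave out 0 in both models; that of *hey1* leaves out 0 only with the split term (0.02 to 1.90).

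Receptors and ligands of the pathway are known from endothelium and endocardium, so each member was also taken as a share of the summed counts of endothelial markers in its library. *aqp8a.1* holds most counts of the list of 14 markers, so the share was computed without it (13 markers) and with it; both scales were added with the data in view. The 13 markers had 874, 938 and 765 CPM in WT and 934, 683 and 777 CPM in mutants, and overlapped. *jag1b* was 3.38%, 2.81% and 2.31% of their counts in WT and 1.38%, 1.63% and 1.55% in mutants. With *aqp8a.1* in the sum it was 1.64%, 1.25% and 0.729% in WT and 0.549%, 0.327% and 0.363% in mutants. *jag1b* was thus lower in all mutants on both scales, each with an exact permutation p of 0.1, the smallest possible.

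Of the other members, *hey1*, *hey2* and *notch1a* separated or overlapped depending on *aqp8a.1*, and the rest overlapped on both scales. *hey2*, which in the adult zebrafish heart is known from the myocardium, so that an endothelial sum is no measure of its source cells, was 1.52%, 1.13% and 1.3% of the 13 markers in WT and 1.67%, 2.76% and 2.38% in mutants. Those groups did not overlap, but with *aqp8a.1* they did, and the log2 difference went from 0.77 to 0.14. *hey1* likewise had no overlap over 13 markers, with a log2 difference of 1.0, and overlapped with *aqp8a.1*, at 0.37. *notch2* lay between 13.6% and 15.7% over 13 markers and between 2.96% and 7.60% with *aqp8a.1*. *notch1a* overlapped over 13 markers and was lower in all mutants with *aqp8a.1* (-0.75). Over 13 markers 2 of the 10 members were higher and 1 lower without overlap, beside 5.06% and 7.83% of all genes tested. With *aqp8a.1*, 0 were higher and 2 lower, beside 1.21% and 25.6% of all genes.

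**Figure D4:**
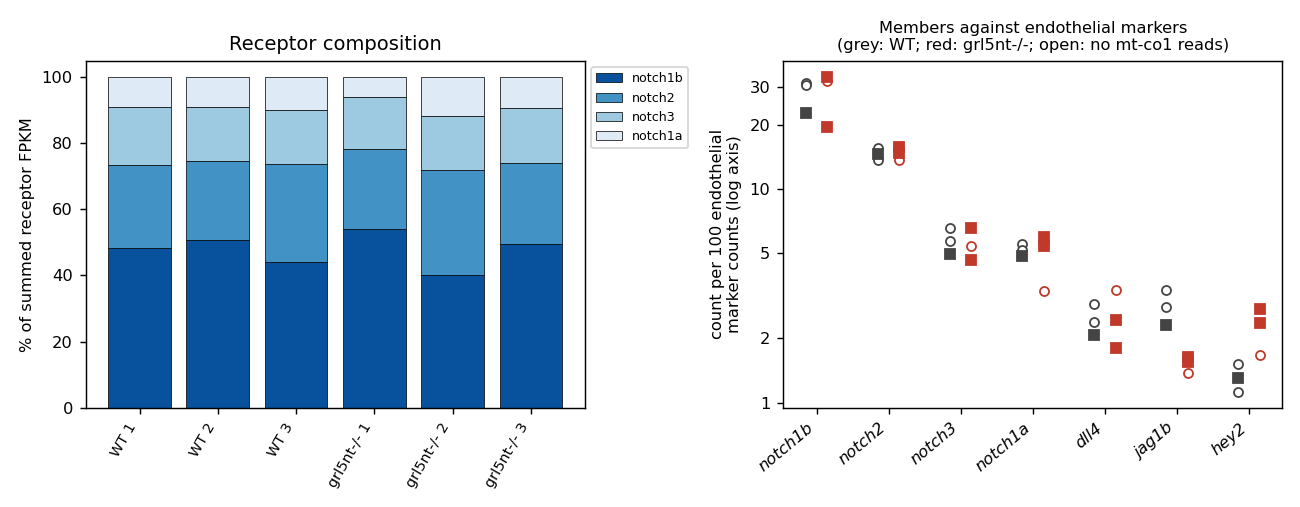
Left, share of each receptor gene in the summed receptor FPKM (stacked bars, in percent) for the 6 libraries; right, counts of 7 of the genes per 100 counts of 13 endothelial markers (log axis) in WT (grey) and grl5nt-/- (red), open circles without and filled squares with *mt-co1* reads. *notch1b* holds 40.1% to 54.2% of the receptor FPKM, and *jag1b* and *hey2* separate by genotype on the right while the receptors and *dll4* overlap; with *aqp8a.1* added to the markers *hey2* overlaps as well.

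Of 149 further symbols in lists of Notch pathway, arterial, venous and atrioventricular canal genes, 133 were matched and 109 genes were tested. None had an adjusted p below 0.05 by edgeR, the lowest being 0.164. At an unadjusted p below 0.05 there were 4 higher and 11 lower. Of the 15602 genes tested, 658 were higher and 991 lower at that threshold, together 10.6%. 38 had a higher and 71 a lower mean in mutants, with a median of -0.22, or -0.17 with the split term. The mutants were above WT without overlap for 5 genes and below for 12, where 6.95% and 8.64% of all genes were. DESeq2 called 1 of the 109 genes (*bhlhe41*), beside 1.55% of all genes tested. The fit with the split term called 2 (*bhlhe41*, *nr2f1a*), beside 1.54% of all genes.

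Of the other ligand genes, 4 were tested, 1 higher and 3 lower in mean. Their median was -0.66, or -0.37 with the split term, beside -0.05 and -0.02 over all genes tested. *dlc* and *dld* are Delta genes known from zebrafish somite and neural development. *dlc* had 27.5, 25.8 and 19.3 CPM in WT and 15.7, 12.7 and 13.7 in mutants, a log2 difference of -0.79 (SE 0.22, adjusted p 0.340 by edgeR). *dld* had 6.42, 5.01 and 4.62 CPM in WT and 1.57, 3.54 and 2.54 in mutants, a log2 difference of -1.08 (SE 0.37, adjusted p 0.405 by edgeR). Both had all mutant libraries below WT, as 8.64% of all genes tested did, and neither was called. *jag2b*, the most abundant of the 4, overlapped at 0.25, and *jag1a*, the paralog of *jag1b*, at -0.53.

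The genes that cut and modify the receptor mostly overlapped between genotypes, as did most genes tested. Of all genes tested, 6.95% were higher and 8.64% lower in mutants without overlap. All 10 tested genes of receptor cleavage overlapped between genotypes, 5 higher and 5 lower in mean, with a median of 0.13. Among them *adam10a*, an ADAM protease, had -0.37, and *psenen*, a subunit gene of gamma-secretase, had 0.33. The protease gene *furinb* had 0.42. Of the 6 glycosylation genes, the Fringe gene *lfng* was the most abundant (48.0 FPKM) and differed by 0.14, while *mfng* had -0.45. The Fringe gene *rfng* was lower in all mutants (-0.80, adjusted p 0.457 by edgeR) and *poglut1*, which adds O-glucose, higher in all mutants (0.54, adjusted p 0.439 by edgeR). The fucosyltransferase gene *pofut2* overlapped at 0.59.

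Trafficking genes gave values in both directions. Of 11 tested, 2 were higher and 9 lower in mean, with a median of -0.45, or -0.12 with the split term. *numb*, an inhibitor of Notch known from flies and vertebrates, had 9.11, 6.92 and 6.50 CPM in WT and 14.6, 12.2 and 12.7 in mutants, a log2 difference of 0.81 (SE 0.24, adjusted p 0.358 by edgeR). *aak1a*, whose mammalian counterpart encodes a kinase of clathrin adaptors, had 0.83 (adjusted p 0.432 by edgeR). *dtx1*, a Deltex ubiquitin ligase gene, had 4.4, 5.91 and 3.84 CPM in WT and 2.12, 1.99 and 2.25 in mutants, a log2 difference of -1.15 (SE 0.32, adjusted p 0.331 by edgeR). These 3 of the 11 genes did not overlap between genotypes. Of all genes tested, 6.95% were higher and 8.64% lower without overlap. *mib1*, a ubiquitin ligase gene needed for ligand activity, and *nedd4l* overlapped at -0.14 each, and *itcha* overlapped at -0.89.

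In the nucleus, *rbpja*, which encodes the DNA-binding partner of cleaved Notch, had 18.5, 15.9 and 13.2 CPM in WT and 15.4, 7.18 and 8.98 in mutants. Its groups overlapped (-0.59, adjusted p 0.526 by edgeR). Of 9 genes of the transcription complex 2 were higher and 7 lower in mean, with a median of -0.54, or -0.19 with the split term. The coactivator gene *maml3* was higher in all mutants (0.50, adjusted p 0.511 by edgeR), while *spen* had -0.97 and *snw1* 0.42, both with overlap. The 11 tested co-repressor genes all overlapped, with a median of -0.12, or 0.07 with the split term. Most genes tested overlapped too, with 6.95% higher and 8.64% lower in mutants without overlap. The abundant *ncor1* and *hdac1* differed by 0.05 and 0.24. The Groucho-type genes *tle3a* and *tle3b* had -0.31 and 0.37, and *sin3aa* had -0.30.

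Among other Her and related repressor genes, 6 of the 24 listed were tested. *bhlhe41*, whose mammalian counterpart Dec2 is a repressor linked to the circadian clock, had 39.6, 44.6 and 50.5 CPM in WT and 92.2, 88.8 and 87.0 in mutants. No mutant library came near a WT one. The log2 fold change of *bhlhe41* was 0.99 (SE 0.20, unadjusted p 0.000842, adjusted p 0.164 by edgeR), the lowest p of the pathway lists. It was called by DESeq2 (adjusted p 0.00123) and with the split term (adjusted p 0.0153). Its paralog *bhlhe40* overlapped at -0.03 and *her9*, another Hes1-type gene, at 0.10. *her4.2* (-0.48) and *her15.1* (0.91) overlapped and had few counts, and *her4.2* lies among near-identical tandem copies whose reads can be split between them. A second entry under the symbol *her4.2* had counts of 9, 9 and 22 in WT and 10, 10 and 8 in mutants. It did not pass the filter.

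**Figure D5:**
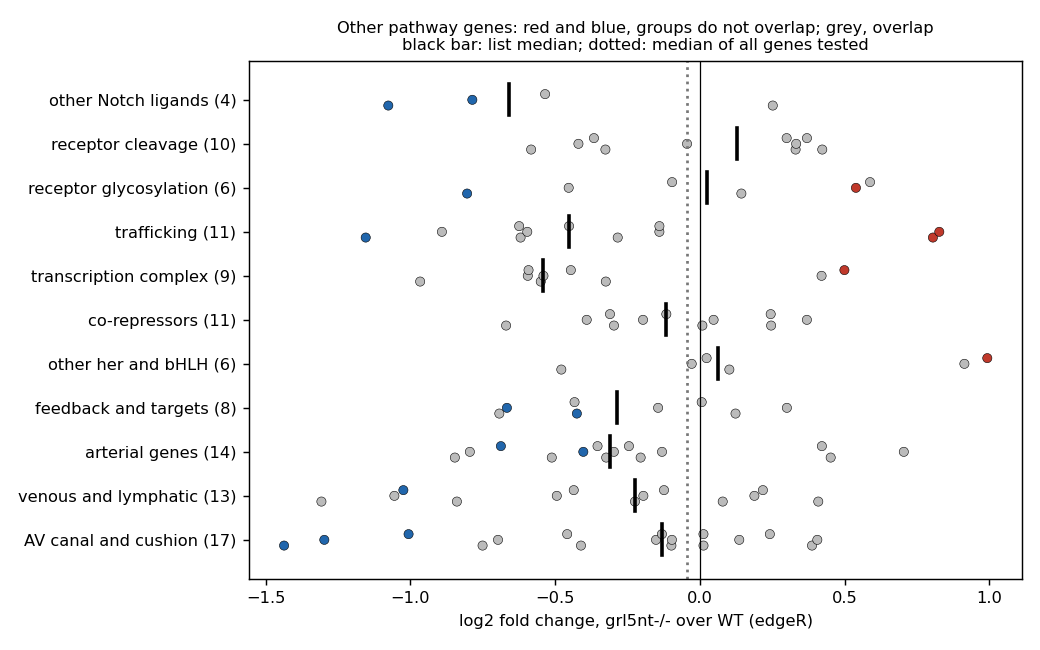
Log2 fold change, grl5nt-/- over WT, from edgeR for each tested gene (points) of the 11 further lists, with the number tested in brackets; red and blue mark genes whose groups do not overlap, black bars are list medians and the dotted line is the median of all genes tested (-0.05). The 5 red and 12 blue points include *bhlhe41* at 0.99 and *vcana* at -1.44.

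Feedback regulators and targets showed 3 higher and 5 lower of 8, with a median of -0.28. *nrarpa*, a Notch-induced inhibitor of the pathway, had 62.1, 48.9 and 96.4 CPM in WT and 71.4, 88.4 and 95.5 in mutants, and overlapped (0.30). *mycb* had -0.42 (adjusted p 0.518 by edgeR) and *sox9a* -0.67 (adjusted p 0.468 by edgeR), both lower in all mutants, while *sox9b* overlapped at -0.69.

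Of 14 tested arterial genes, 3 were higher and 11 lower in mean, with a median of -0.31. The chemokine receptor gene *cxcr4b* had 80.9, 102 and 107 CPM in WT and 62.1, 56.6 and 61.2 in mutants, a log2 difference of -0.69 (SE 0.20, adjusted p 0.355 by edgeR). The ephrin gene *efnb2b* was also lower in all mutants (-0.40, adjusted p 0.534 by edgeR). Of all genes tested, 8.64% were lower without overlap. *cxcr4a*, the paralog of *cxcr4b*, had few counts and overlapped at -0.20. The VEGF receptor gene *flt1* had 0.70 (adjusted p 0.479 by edgeR), the tight junction gene *cldn5a* -0.79 and *tmem88a* -0.24, and these 3 overlapped.

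The 13 venous and lymphatic genes had 4 higher and 9 lower, with a median of -0.22. *nr2f1a*, an orphan nuclear receptor gene known in zebrafish for atrial identity and also in the list of atrial markers, had 28.0, 30.6 and 26.9 CPM in WT and 10.1, 18.2 and 13.8 in mutants. Its log2 fold change was -1.02 (SE 0.25, adjusted p 0.266 by edgeR), and it was called with the split term (adjusted p 0.0389). Its paralog *nr2f2*, known for venous identity, overlapped at -1.06. The scavenger receptor genes *stab2* and *mrc1a* overlapped at -0.84 and -1.31, and *ephb4b* at 0.08. The summed atrial markers, *nr2f1a* included, had 2439, 3490 and 2879 CPM in WT and 2880, 1554 and 1819 in mutants. Their part in these values was not tested.

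The atrioventricular canal and cushion list, 17 genes tested, had 6 higher and 11 lower. Its median was -0.13, or -0.32 with the split term. *tbx2b*, a T-box repressor gene of the canal, had 9.32, 6.33 and 3.60 CPM in WT and 3.08, 1.64 and 3.12 in mutants, a log2 difference of -1.3 (SE 0.43, adjusted p 0.396 by edgeR). *tbx2a* had -1.01 (adjusted p 0.485 by edgeR) and *vcana*, a versican gene of the cushion matrix, -1.44 (SE 0.41, adjusted p 0.337 by edgeR), both without overlap but with few counts. *bmp4* overlapped at -0.70. The abundant endocardial genes *klf2a* (65.7 FPKM) and *nfatc1* (14.4 FPKM) overlapped at -0.13 and 0.24.

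Other cell types were read from their marker sums. The macrophage and neutrophil markers had 389, 370 and 208 CPM in WT and 246, 203 and 218 in mutants, and the erythrocyte markers 9224, 19790 and 50090 in WT and 22830, 50190 and 33470 in mutants. Both overlapped between genotypes. In libraries with *mt-co1* reads the sums of the macrophage and neutrophil (log2 difference -0.65), atrial (-0.53) and outflow tract (-0.14) markers were lower. The erythrocyte (1.45), mural (0.58), cardiomyocyte (0.56), endothelial (0.54, with *aqp8a.1*) and epicardial (0.43) sums were higher. Without *aqp8a.1* the endothelial sum was lower in them, at 683 to 777 CPM against 874 to 938 CPM. The median split difference of single genes was also taken from the fit with both terms. Its sign was opposite to that of the sum for mural (-0.53), endothelial (-0.11) and outflow tract (0.10) genes. *notch1b* and *dll4* were lower in the libraries with *mt-co1* reads and *her6* higher. The epicardial sum, from 2105 to 3191 CPM in WT and from 2320 to 3214 in mutants, is mostly *anxa2a* and *krt4*, which other cells also express. These 2 genes had higher means in mutants (0.13 and 0.50) and overlapped. Over the 8 genes of the list, 3 had higher and 5 lower means in mutants. 1 of the 8, *tbx18*, was lower in all mutants, beside 8.64% of all genes tested. Besides *anxa2a* and *krt4*, the genes named here were picked after their values were seen. *tbx18* had 34.3, 38.4 and 20.6 CPM in WT and 17.4, 7.70 and 12.3 in mutants. Its log2 fold change was -1.31 (SE 0.35, adjusted p 0.314 by edgeR and 0.0346 with the split term). *tcf21* (-0.55), *wt1a* (-0.51), *podxl* (-0.39) and *wt1b* (-0.38) overlapped, as did *aldh1a2* at 0.06. The part of these cell types in the levels of the Notch genes was not tested.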

How the data were processed

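Ventricles of 3 grl5nt-/- and 3 WT libraries (6 pooled ventricles each) were used, and the other 6 of 12 samples are not analysed here. The authors cleaned the reads (Seqtk), aligned these to GRCz10 (HISAT2 2.0.4) and derived FPKM (StringTie 1.3.0). For 32105 genes the authors deposited FPKM and whole-number counts, the latter not normalized. The program that made the counts and its use of strand are not given in the sources used here, so paralogs, overlapping and antisense genes may share reads.

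Counts were scaled with TMM factors and tested with the two-sided quasi-likelihood test of edgeR 4.0.16 (R 4.3.3) over the 15602 genes that passed filterByExpr. P-values were adjusted by Benjamini-Hochberg. A prior count of 2 was added for log2 CPM. A count of 3 corresponds to 0.155 to 0.293 CPM. Single values were compared by exact permutation tests. Intervals of counts cover counting error only. Each library was left out in turn. Further alternatives were a block for replicate number, a term for the *mt-co1* split, a threshold of 0.1 on the adjusted p, DESeq2 1.42.0, edgeR on DESeq2 size factors, all genes unfiltered, a minimum mean FPKM of 1, and limma 3.58.1 with a pseudocount of 1 or 0.1 on log2 FPKM. Scripts were tested on simulated data.

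The members and lists were chosen with earlier results of these data known. All 10 members are named; of each further pathway list, the 4 genes with the smallest p and the 2 with the highest FPKM, and of each marker list at most the 2 with the highest FPKM. 1 gene that this rule names is not reported here.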

Additional observations from a re-analysis of the deposited data

How the results depend on the processing

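The number of genes called at an adjusted p below 0.05 was 12 by edgeR. It was 242 with DESeq2, 241 with a term for the *mt-co1* split, 39 without the filter, 4 with a mean of at least 1 FPKM, and 5 with limma on either FPKM scale; at an adjusted p below 0.1 it was 23. Without 1 library it ranged from 3 (without mutant replicate 2 or 3) through 5 (without WT replicate 1 or 2) to 30 (without WT replicate 3 or mutant replicate 1). Deviations from the group means correlated at 0.593, -0.338 and 0.385 for replicates 1, 2 and 3. Over all pairs of a WT and a mutant library, those on the same side of the *mt-co1* split correlated positively (0.385 to 0.593). Pairs across the split, replicate 2 among them, correlated negatively (-0.251 to -0.68). The sign thus followed the split and not the replicate number. Pairs of unlike number on the same side had 0.428 (WT replicate 2, mutant replicate 1) and 0.547 (WT replicate 3, mutant replicate 2). Whether replicates were paired by number was not tested. With the replicate number as a block 132 genes were called. Of the members, 0 were called with that block, and *jag1b* had an adjusted p of 0.0832. Members called went from 0 to 1 with DESeq2 and with the split term, and the further pathway genes called from 0 to 1 with DESeq2 and 2 with the split term. Of the 6 ratios tested, those without overlap numbered 1, and 1 to 2 when a library was left out (2 without WT replicate 1).

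*hey1*, *hey2*, *notch1a* and *jag1b* kept their direction under every alternative that gave a value, and *heyl* in the fits that kept it. *notch1b* turned to 0.14 with the split term and ran from -0.29 to 0.20 without 1 library. *notch2* turned to 0.0029 when scaled to the 13 endothelial markers without *aqp8a.1*. *notch3* ran from -0.31 to 0.037 without 1 library. *dll4* turned to 0.0240 with DESeq2, 0.0243 with its size factors, 0.20 with the split term and 0.013 on that scale, and ran from -0.42 to 0.26 without 1 library. *her6* turned to 0.036 on that scale and ran from -0.53 to 0.40 without 1 library. With *aqp8a.1* in the sum, *notch1b* (-0.64), *notch2* (-0.62), *notch3* (-0.68), *dll4* (-0.61) and *her6* (-0.59) had their lowest values of all alternatives. *heyl* was at 0.60 over the 13 markers and at -0.02 with *aqp8a.1*. *aqp8a.1* had a higher mean in mutants, and adding it to the sum lowers the log2 difference of every member by the same amount. The cause of its higher mean was not tested. The FPKM scales moved the median of all genes to -0.22 and -0.27, so on them *hey2* (0.31 and 0.35) lay further above that median than its value shows. *hey1* and *heyl* gave no value with the FPKM minimum, and their counts limit what can be seen.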
